A study of Mus musculus with 8 samples.

Results

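An exon array measures RNA with many short probe sets per gene, so that single exons can be read apart from the rest of their gene. Of the 391597 probe sets in the deposited table, 159700 have no gene symbol in the platform annotation. The probe sets described here are those of them that were bright, with a mean signal over all 8 arrays of 8 log2 or more. They numbered 23619, which is 6.03% of the table and 14.8% of the probe sets without a symbol. They were selected on this mean level over both genotypes. A probe set could therefore be bright through 1 genotype alone, and 520 had a wild type mean and 591 a Nova2 KO mean below 8 log2. Their genomic positions, exons and sequences were not analysed here, so each is called by its probe set number.

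The arrays hold total RNA from cortex, taken on postnatal day 10 from mice of strain CD1. One group was 4 wild type mice and the other 4 mice with a knockout of Nova2 (Nova2 KO), with 1 array per mouse. The labels do not give the part of Nova2 that was deleted, nor the litter or sex of the mice. The question put to these probe sets is which of them had another signal in the cortex without Nova2.

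Nova2 is an RNA-binding protein of neurons with KH domains. It binds clusters of a short motif in pre-mRNA, and the place of a cluster relative to an exon is known to decide whether that exon is included or skipped. Loss of Nova2 is therefore known to alter single exons, often with little effect on the rest of the transcript. Exon arrays also carry probe sets for exons that were known at the time from single cDNA sequences or from gene prediction alone, and such probe sets often bear no gene name.

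As a check of the labels, 16 Nova2 probe sets were tested. The one with the largest difference, 5294108, read 8.87, 8.65, 8.53 and 8.66 log2 on wild type arrays 1 to 4 and 6.28, 7.17, 7.26 and 6.73 log2 on Nova2 KO arrays 1 to 4. All its Nova2 KO values lay below its wild type values, although over the whole table the difference of -1.82 log2 (SE 0.22) had a limma adjusted p of 0.0786. Of the 16, 6 were lower and 10 higher in Nova2 KO, and none passed the threshold. Probe set 4414499 lay the other way, between 7.49 and 7.84 log2 in wild type and between 8.27 and 8.46 log2 in Nova2 KO (0.70 log2, SE 0.13, limma adjusted p = 0.321). Array medians over all probe sets ran from 7.02 log2 on wild type 4 to 7.37 log2 on Nova2 KO 2. The neuronal genes Snap25, Syt1 and Stmn2 were bright (11.8 log2 for the lowest), and of the measured myelin genes 7 of 7 had a lower level without Nova2, their mean being 9.17 to 9.45 log2 on wild type and 8.58 to 8.91 log2 on Nova2 KO arrays. All 4 measured microglial genes were lower as well (8.53 to 8.84 against 8.46 to 8.59 log2), as were 3 of 3 astrocyte genes (9.14 to 9.32 against 8.89 to 9.21 log2) and 3 of 3 vessel genes (8.003 to 8.009 against 7.72 to 8.07 log2). The 3 neuronal genes were higher (12.02 to 12.13 against 12.02 to 12.30 log2). Other neuronal lists were mixed, with 2 higher and 1 lower of excitatory neurons and 3 higher and 1 lower of interneurons. Meninges had 1 higher and 2 lower, and choroid plexus 1 higher and 1 lower. Lower too were Alas2 of blood (7.26 to 8.41 against 6.71 to 7.60 log2), Drd2 of striatum and both thalamus genes. The ranges overlapped for all of these lists but myelin, and the lowest mean of any measured marker gene was 7.03 log2, for Kl of the choroid plexus. The part of cell composition in the results below was not tested, and in bulk tissue fewer cells of a type and less RNA per cell cannot be told apart.

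Levels of the bright unnamed probe sets began at the threshold and ended at 14.4 log2, with a median of 9.26 log2 and quartiles of 8.56 and 10.3 log2. Between 8 and 9 log2 lay 9709 of them (41.1%), and at 13 log2 or above 214 (0.906%). All 8 arrays read 8 log2 or more for 18467 of the 23619. Just outside the threshold were 5020351 (7.9999 log2), 5593274 (7.9997 log2) and 5407986 (7.9997 log2), and just inside were 5361581 (8.0001 log2), 4651870 (8.0002 log2) and 5576256 (8.0002 log2). None of these 6 differed between genotypes past the threshold, with limma adjusted p from 0.741 to 0.954.

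The 5 brightest were 4915563, 5520308, 4924018, 5255940 and 4436728, with means from 14.2 to 14.4 log2. Probe set 4915563 read 14.1, 14.6, 14.6 and 14.4 log2 on wild type and 14.6, 14.6, 14.5 and 14.1 log2 on Nova2 KO arrays. The genotypes overlapped for each of the 5, and the differences ran from 0.022 to 0.092 log2 (SE 0.13 to 0.18). These probe sets held the highest value of their array on wild type 1, 2 and 3 and on Nova2 KO 1, 3 and 4.

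Of the 23619, 3 passed a Benjamini-Hochberg adjusted p of 0.05 in limma, fitted over all 293697 probe sets above the 25th percentile of mean signal. Probe sets 4525634 and 5022420 rose in Nova2 KO and 5182010 fell. Among all probe sets tested, 0.0034% passed as higher and 0.0034% as lower. The 3 are 0.0127% of these probe sets, beside 0.00681% (20 of 293697) of all probe sets tested and 0.00734% (9 of 122679) of equally bright probe sets with 1 gene symbol. At counts this small the shares were not compared by a test. With quantile normalization or median centring of the arrays 5 passed, 4 higher and 1 lower. That was 0.0212%, now beside a larger share of all probe sets tested, 0.0293% and 0.0289%, so the order of these shares depended on the scaling.

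Probe set 4525634 read 9.73, 9.65, 9.75 and 9.84 log2 on wild type arrays 1 to 4 and 11.8, 11.4, 11.7 and 11.4 log2 on Nova2 KO arrays 1 to 4. The lowest Nova2 KO array lay 1.54 log2 above the highest wild type array. The difference was 1.81 log2 (SE 0.13, n = 4 per group), or 3.51-fold, with a limma adjusted p of 0.0109. Both groups were above the filter value of 5.86 log2 on every array.

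Probe set 5182010 read 12.6, 12.6, 12.6 and 12.4 log2 on wild type and 10.68, 10.87, 10.992 and 11.005 log2 on Nova2 KO arrays. The groups lay 1.40 log2 apart at their nearest arrays. The signal fell by 1.66 log2 (SE 0.13, limma adjusted p = 0.0125), so that wild type was 3.17-fold above Nova2 KO. Bright in both genotypes, it averaged 12.6 ± 0.099 log2 over the wild type arrays and 10.9 ± 0.15 log2 over the Nova2 KO arrays (SD, n = 4 each).

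Probe set 5022420 read 7.81, 7.16, 7.51 and 7.54 log2 on wild type and 9.71, 9.18, 9.66 and 9.26 log2 on Nova2 KO arrays. It was bright by its Nova2 KO arrays, since its wild type mean was 7.50 ± 0.27 log2 (SD, n = 4). It rose by 1.95 log2 (SE 0.18), or 3.87-fold, with a limma adjusted p of 0.0344. With brightness judged on the wild type arrays alone, 5022420 was no longer among the bright probe sets. Probe set 5608399, which fell by 1.497 log2 (SE 0.15, limma adjusted p = 0.0455), then was. That rule uses 1 side of the comparison and so favours probe sets that fall. Probe set 5608399 was bright by wild type alone, at a mean of 8.54 log2 beside 7.04 log2 in Nova2 KO.

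The sizes of these differences hardly moved when single arrays were left out, but the calls did. The difference ran from 1.74 to 1.87 log2 for 4525634, from -1.71 to -1.60 log2 for 5182010 and from 1.84 to 2.05 log2 for 5022420. Without wild type 4, and likewise without Nova2 KO 4, 4525634 and 5182010 passed and 5022420 did not. That was 0.00847% of the 23619, beside 0.00204% and 0.00306% of all probe sets tested. Without any 1 of the other 6 arrays, none of the 23619 passed in limma, beside 0% to 0.00204% of all probe sets tested. The limma adjusted p for the 3 then ran from 0.0546 to 0.23. At an unadjusted p under 0.05 were 757 to 1261 of the 23619, beside 1209 with all arrays. The same count over all probe sets was not taken in these settings. Wild type 4 and Nova2 KO 4 had the lowest array medians, 7.02 and 7.06 log2. Without both of them the differences were 1.90, -1.75 and 2.03 log2, with limma adjusted p of 0.055, 0.055 and 0.143. None of the 23619 then passed (1173 at an unadjusted p under 0.05), beside 0.000681% of all probe sets tested.

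Next in order of p stood 5543009, which missed the threshold with a limma adjusted p of 0.0588. It read 8.21, 8.19, 8.47 and 7.64 log2 on wild type and 10.2, 10.1, 9.58 and 10.1 log2 on Nova2 KO arrays, a difference of 1.87 log2 (SE 0.21). Its nearest arrays were 1.11 log2 apart. Together with the 3 called probe sets it made up the 4 of 23619 (0.0169%) whose groups were separated by 1 log2 or more. Among all probe sets tested that share was 0.0123% (36), and among bright probe sets with 1 symbol it was 0.00815% (10), led by Chl1, Gphn and Ank3, which encode a neural adhesion molecule, the scaffold of inhibitory synapses and the ankyrin of the axon initial segment.

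At an adjusted p under 0.2 there were 12, of which 8 were higher in Nova2 KO. They were 0.0508% of the bright unnamed probe sets, beside 0.0487% of all probe sets tested. After the 4 above these included 5038229, with wild type arrays between 8.95 and 9.13 log2 and Nova2 KO arrays between 9.79 and 10.2 log2 (difference 0.93 log2, SE 0.13, limma adjusted p = 0.121). Probe set 5590716 lay between 8.91 and 9.29 log2 in wild type and between 9.94 and 10.2 log2 in Nova2 KO (0.95 log2, SE 0.13, limma adjusted p = 0.143). The very bright 4810633 lay between 12.8 and 13.2 log2 in wild type and between 11.97 and 12.22 log2 in Nova2 KO (-0.92 log2, SE 0.14, limma adjusted p = 0.17). These 3 were named after their values were seen, and none of them passed.

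The groups did not overlap for 1012 of the 23619 (4.28%), beside 5.1% of all probe sets tested and 7.26% of bright probe sets with 1 symbol. Nova2 KO lay above wild type in 590 of the 1012 and below in 422. Among all probe sets tested it lay above in 8966 and below in 5998 of 14964, which are 3.05% and 2.04% of all tested. The 8 of the 590 with the largest difference were 5022420, 5543009 and 4525634 and also 4958563, 4695125, 4774844, 5307697 and 4769236, the last 5 at 1.14 to 2.25 log2. For 5 of these 8 the wild type mean was below 8 log2, so that they were bright through Nova2 KO. These were the called 5022420 and also 4958563, 4695125, 4774844 and 4769236. Of the 8, only 4525634 and 5022420 passed. Probe sets 4958563, 4695125, 4774844, 5307697 and 4769236 had limma adjusted p from 0.148 to 0.758. Probe set 4695125 read 7.52, 7.69, 7.90 and 7.01 log2 on wild type and 9.45, 9.04, 9.21 and 8.71 log2 on Nova2 KO arrays, and its adjusted p of 0.148 was 0.0264 with median centring and 0.0309 with quantile normalization. The difference of 4958563 (2.25 log2, SE 1.05) rested on Nova2 KO 2, which read 13.6 log2 while the other Nova2 KO arrays read 8.20, 8.48 and 8.65 log2. Without Nova2 KO 2 it was 0.97 log2.

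Among the 422 on the other side, 5179240 followed 5182010, with 9.54, 9.74, 9.68 and 9.20 log2 on wild type and 8.54, 8.12, 7.58 and 7.51 log2 on Nova2 KO arrays. Its difference was -1.60 log2 (SE 0.24, limma adjusted p = 0.182). Probe set 4820192 had tight wild type values, between 9.14 and 9.32 log2, and Nova2 KO values between 7.48 and 8.36 log2 (-1.21 log2, SE 0.19, limma adjusted p = 0.191). For 4798023 and 5299210 the differences were -1.19 and -1.04 log2, with limma adjusted p of 0.253 and 0.208. Probe sets 5182287, 4329046 and 5472587 had differences of -1.27, -1.06 and -1.05 log2 and groups that nearly touched, with 0.079, 0.28 and 0.023 log2 between the nearest arrays. For 5182287 the wild type arrays were themselves parted, with arrays 1 and 4 at 11.5 and 11.2 log2 and arrays 2 and 3 at 9.83 and 9.67 log2. Of these 8 lower probe sets, 3 (5179240, 4820192 and 5299210) had a Nova2 KO mean below 8 log2, so that they were bright through wild type.

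The bright unnamed probe sets had differences on both sides of 0. Their median difference was -0.011 log2, beside 0.0061 log2 over all probe sets tested and 0.014 log2 over bright probe sets with 1 symbol. Higher in Nova2 KO were 11292 (47.8%). All but the outermost differences ran from -0.31 to 0.36 log2 (the lowest and highest 5% left off), beside -0.30 to 0.34 log2 for bright probe sets with a symbol. A difference of at least 2-fold was seen in 45 (0.191%), 29 higher and 16 lower. The share was 0.236% of all probe sets tested and 0.116% of bright probe sets with 1 symbol. At an unadjusted p under 0.05 in limma were 1209 (5.12%), beside 6.68% of all probe sets tested and 7.17% of bright probe sets with 1 symbol.

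Spread between mice of one genotype fell with signal. The median SD within groups was 0.28 log2 for probe sets between 8 and 9 log2, 0.23 log2 between 10 and 11 log2 and 0.10 log2 at 13 log2 or above. Bright probe sets with 1 symbol had 0.23, 0.17 and 0.11 log2 at the same levels. An SD within groups above 1 log2 was found in 173 of the 23619 (0.732%) and in 0.159% of bright probe sets with a symbol. Whether this spread differs between both kinds was not tested, because probe sets of 1 array set are not independent.

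The first axis of variation between arrays held 51.5% of the variance of the bright unnamed probe sets and 37.1% of that of bright probe sets with a symbol. Along it wild type 2, wild type 3 and Nova2 KO 2 lay at one end and wild type 4 and Nova2 KO 4 at the other. For 1182 of the 23619 (5%), wild type 2, wild type 3 and Nova2 KO 2 were the 3 highest arrays, by 0.3 log2 or more above the next. This profile, which was picked out after the values were seen, was found in 0.429% (526) of bright probe sets with 1 symbol. Its share was largest between 11 and 12 log2, at 12.6% (283 of 2254) of the unnamed probe sets, and 0.467% to 7.39% at other levels. Over the 1182, array medians were 10.53 to 10.58 log2 on the 3 high arrays and 9.48 to 9.94 log2 on the others. Of those between 11 and 12 log2, 4573781 had the largest step to the next array, 0.753 log2, beside a median of 0.484 log2 over the 1182. It read 11.2, 12.1, 11.98 and 11.1 log2 on wild type arrays 1 to 4 and 11.2, 12.1, 11.1 and 11.2 log2 on Nova2 KO arrays 1 to 4. The 3 high arrays are from both genotypes, so the groups overlap in each of the 1182 by the way the profile was chosen. None of the 1182 passed the test between genotypes, but that choice left little room for any to pass.

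The same 3 arrays had the highest medians over all probe sets, 7.37 log2 each, and the part of that in the profile was not tested. With each array centred on its median the profile was found in 667 (2.82%) of the unnamed and in 0.16% of the named probe sets, and with quantile normalization in 1123 (4.75%) and 0.351%. Of the 526 named probe sets with it, 73 named Sgip1, an endocytic protein of the brain, out of 129 bright Sgip1 probe sets, and 42 named Slc38a6, an amino acid transporter of the same family as the glutamine carriers, out of 49.

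A few bright unnamed probe sets differed widely between mice. In 71 of the 23619 (0.301%), the sorted 8 values held a gap of 2 log2 or more, beside 0.0652% (80) of bright probe sets with 1 symbol. A single low array made the gap in 44 and a single high array in 15. In none of the 71 did the gap part the genotypes, whereas among the 80 named probe sets it did for 3, of Chl1, Gphn and Ank3. The low array was wild type 4 in 24, Nova2 KO 4 in 9 and wild type 1 in 5. Wild type 4 also held the lowest value of 25.4% of all the bright unnamed probe sets and of 25.4% of those with a symbol.

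The 5 with the largest SD within groups were 4612581, 4824588, 4955838, 5013390 and 4346827. Probe set 5013390 read 4.02 log2, the floor of the arrays, on wild type 3 and 9.91 to 10.8 log2 on the other 7. Probe set 4346827 read 4.04 log2 on wild type 4 and 10.02 to 10.45 log2 on the other 7. In the opposite sense, 4955838 read 15.1 log2 on Nova2 KO 2, the highest value of that array, and 7.42 to 8.43 log2 elsewhere. Nova2 KO 2 alone was high in 9 of the 71, and 4955838, 4958563 and 5415297 read 15.1, 13.6 and 13.8 log2 there.

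Probe sets 4612581 and 4824588 shared a pattern with 5506983. The last read 9.66, 10.1 and 10.1 log2 on wild type 1, wild type 2 and Nova2 KO 2 and 13.01 to 13.42 log2 on the other 5 arrays. On the same 3 arrays 4612581 read 5.67, 6.47 and 7.26 log2, beside 11.5 to 12.6 log2 on the others, and 4824588 read 7.19, 8.11 and 7.90 log2, beside 12.6 to 13.2 log2. The gene value most like both over the 8 arrays was that of Gm5921, a pseudogene, with a Pearson r of 0.986 and 0.985 between deviations from the group means. One of its 4 probe sets, 5329425, carried the pattern, at 4.99, 6.03 and 5.02 log2 on these 3 arrays and 10.8 to 12.1 log2 on the others. The same split was seen in 1 of 3 probe sets of the pseudogene Gm6266, 5103049, with 4.06, 4.62 and 4.80 log2 against 9.72 to 11.2 log2. It was also seen in probe set 5162485 of Glrb, which encodes the beta subunit of the glycine receptor, with 6.77, 6.04 and 6.78 log2 against 9.63 to 10.1 log2. The next genes by r, Slc14a2 and Tgfbr3, varied by only 0.59 and 0.30 log2 over the 8 arrays. For 4955838, 5013390 and 4346827 the leading genes were Mett10d, Rbmx2 and Fstl5, which varied by 0.50, 0.64 and 0.44 log2, and 1 array stood apart in each.

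Probe sets 5070173 and 4314742 were low on wild type 2 and Nova2 KO 2 alone. Probe set 5070173 read 6.80 and 6.96 log2 on these and 10.2 to 11.1 log2 on the other 6, and 4314742 read 7.11 and 6.98 log2 and 10.2 to 11.2 log2. Both were high again on wild type 1, at 10.2 log2 each, and on Nova2 KO 3, at 11.1 and 11.2 log2, so that the pair read alike across the arrays.

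Another pair followed the sex-linked genes. Probe set 4516775 read 6.89, 9.59, 9.55 and 6.24 log2 on wild type arrays 1 to 4 and 9.61, 6.16, 9.81 and 7.38 log2 on Nova2 KO arrays 1 to 4. Probe set 4876151 read 7.42, 9.83, 9.87 and 7.03 log2 and 9.78, 6.98, 9.68 and 7.23 log2 on the same arrays. Both were high on the 4 arrays where Eif2s3y, a Y-linked translation factor gene, lay between 8.996 and 9.43 log2. They were low on the 4 arrays where Xist, which coats and silences an X chromosome in females, lay between 10.2 and 11.04 log2. Each genotype held 2 arrays of either kind.

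Some probe sets followed Cwc22, which encodes a spliceosomal protein that helps to place the exon junction complex. The Cwc22 gene value, the median of 76 probe sets, was 8.71, 9.97, 9.58 and 8.60 log2 on wild type arrays 1 to 4 and 9.498, 10.1, 7.63 and 8.74 log2 on Nova2 KO arrays 1 to 4. Over the 8 arrays, 8 bright unnamed probe sets that varied by 1.5 log2 or more had a Pearson r of 0.97 or above with it. The most like was 4392501 (r of 0.991), at 10.1, 11.2, 10.9 and 9.61 log2 on wild type and 10.7, 11.4, 8.36 and 9.77 log2 on Nova2 KO arrays. Among bright probe sets with 1 symbol, 45 met the same 2 bounds, and all 45 were named Cwc22. These 45 are among the 76 that gave the Cwc22 gene value, which favours them in advance. The widest of the 8 was 4497401, which read 5.73 log2 on Nova2 KO 3 and 8.06 to 10.6 log2 on the others. These r describe 8 arrays that share 1 scaling, and the anchor gene was chosen after the values were seen.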

How the data were processed

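Per the labels' protocols, RNA was taken with Trizol, and targets were made by the Affymetrix WT Sense Target Labeling Assay. PLIER, version not given, made the values, per the submitters' processing notes. The deposited values are log2 signals per probe set, as their range shows, with 1 column per array. How arrays were normalized to each other, the genome build and any filter are not given in the sources used here. Of 391597 probe sets, 228454 had 1 gene symbol in the platform annotation, 3443 several and 159700 none.

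From these values, limma 3.58.1 (lmFit and eBayes, R 4.3.3) was fitted to the 293697 probe sets above the 25th percentile of mean signal (5.86 log2), with Benjamini-Hochberg adjustment over all of them and a threshold of 0.05. The fit was tested on simulated data. A gene value is the median of its probe sets, for genes with at least 3. With 4 arrays per group, their number limits the precision.

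Named were every probe set past the threshold, the 8 higher and 8 lower with the largest difference among groups that did not overlap, the 5 brightest, the 5 with the largest SD within groups with the most alike genes, and the 3 on either side of the brightness threshold. The probe sets and lists were chosen with earlier results of these data known. Same-numbered arrays were not treated as pairs. Alternatives in scaling, filter, offset, variance model, replicate block, arrays left out and brightness threshold were run.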

Additional observations from a re-analysis of the deposited data

Results flagged for a closer look

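Of 52 groups of 4 arrays examined for the named probe sets, 9 held 1 array far from the other 3 by Dixon's criterion. Chance gives about 1 in 20 groups, but the number here is no measure of it: 4 of the 9 belong to the 5 probe sets named for their spread, and others were named for a large difference. Nova2 KO 2 stood apart in 3 of them, at 13.6 log2 for 4958563, 15.1 log2 for 4955838 and 7.90 log2 for 4824588. Wild type 4 stood apart at 12.4 log2 for 5182010 and at 4.04 log2 for 4346827. Wild type 3 read 4.02 log2 for 5013390, and wild type 1 read 9.23 log2 for 5307697. Nova2 KO 3 read 9.58 log2 for 5543009, and Nova2 KO 4 read 14.1 log2 for 4915563.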

How the results depend on the processing

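The median difference of -0.011 log2 moved by less than 1 SD under each alternative run for it, but its sign was not stable: it was 0.018, 0.012 and 0.028 log2 without wild type 2, wild type 3 and Nova2 KO 4, and 0.0020 log2 at a brightness of 10 log2. The 8 higher and 8 lower named probe sets, the 3 called included, kept their sign. That was partly built in: leaving out arrays cannot reverse groups without overlap, and filter, variance model and block keep the difference. Others named were not followed. The count of 3 past the threshold (2 higher, 1 lower) was 5 (4 and 1) with quantile normalization and with median centring, 11 (8 and 3) with the array median as a covariate, 7 (6 and 1) with the filter at the 50th percentile and 15 (10 and 5) with a trended, robust eBayes. The last 3 are 0.0466%, 0.0296% and 0.0635% of the bright unnamed probe sets, beside 0.0626%, 0.0449% and 0.0562% of all probe sets tested. With no filter or with an offset of 1 in place of 16 the count was 2 (1 and 1). That is 0.00847%, beside 0.00153% and 0.00204% of all. At a brightness of 9 or of 10 log2 the count was also 2 (1 and 1), now 0.0144% and 0.0272%. At 7 log2 it was 6 (4 and 2, 0.0138%), and with brightness on wild type arrays alone 3 (1 and 2, 0.0126%). Brightness on wild type alone itself favours probe sets that fall. The share of all was 0.00681% in these brightness settings. Leaving out single arrays gave 0 to 2 (0 to 1 higher, 0 to 1 lower), or 0% to 0.00847%, beside 0% to 0.00306% of all. Leaving out both arrays numbered 4 gave 0 (0 and 0), beside 0.000681% of all. Probe sets whose groups did not overlap numbered 1387 to 2188 with 1 array left out (5.87% to 9.26%, beside 7.11% to 9.93% of all). Leaving out an array itself makes overlap rarer. Without both arrays numbered 4 they numbered 3141 (13.3% beside 14.3%). At 7, 9 and 10 log2 they numbered 1575, 633 and 337 (3.61%, 4.55% and 4.58%, beside 5.1% of all). With the replicate number as a block, 1 passed (1 higher, 0 lower), which is 0.00423%, beside 0.00238% of all. It was 5022420 (limma adjusted p = 0.0461), and 4525634 and 5182010 had 0.0659 and 0.0739. Deviations of same-numbered arrays from their group means correlated at 0.131, 0.411, 0.0818 and 0.521 over all probe sets tested and at 0.308, 0.588, 0.0989 and 0.702 over the bright unnamed ones, in both cases not all over 0.1. Over all probe sets tested, each Nova2 KO array correlated best with the wild type array of its own number. For numbers 2 and 3 this was by little, since another wild type array reached 0.362 and 0.0788. For numbers 1 and 4 the next was -0.00647 and 0.0675. This is a hint from the data and not from the design. In alternatives chosen after seeing the data, the 71 probe sets with a gap of 2 log2 were 153 at 1.5 log2, 29 at 3 log2, 57 with median centring and 55 with quantile normalization, and the 1182 with the shared profile were 1816 at a step of 0.2 log2 and 540 at 0.5 log2. Where no construction is named, the cause was not tested. The signal gives no depth, and 4 arrays per group limit what could pass.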
